A study of Mus musculus with 48 samples.

Results

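The livers of female mice fed a high fat, cholesterol and fructose (HFCF) diet were compared with the livers of females kept on a low fat (LF) diet, in mice that had received a control virus. The members were chosen by sample title and comprised 4 HFCF and 4 LF libraries of the 48 in the series, and the comparison covered all 25502 genes of the joined count table. All of these mice were adults with a floxed Pparg gene, and after 16 weeks of feeding they were given AAV8-TBG-null, an adeno-associated virus that carries the hepatocyte promoter TBG but no Cre, so that Pparg was left intact. The LF controls ate the LF diet for 34 weeks and are labelled healthy. The HFCF controls ate a high fat (HF) diet for 18 weeks and then the HFCF diet for 16 weeks, are labelled as having non-alcoholic steatohepatitis, and carry the replicate numbers 1, 2, 3 and 5. The 4 HF controls, fed the HF diet for 34 weeks and labelled as having steatosis, are set beside them, as are 4 LF and 4 HFCF libraries from females given AAV8-TBG-Cre, which deletes floxed Pparg in hepatocytes and is called the labelled knockout here. Whole liver was sequenced, so each value is an average over hepatocytes and all other liver cells, and fewer cells of a type cannot be told apart from less RNA per cell. The labels describe each library as a mouse and give neither strain nor cage, and the p-values measure the spread between these libraries.

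Steatohepatitis is fatty liver with inflammation, hepatocyte injury and scarring. In fat-laden hepatocytes triglyceride is stored in droplets coated by perilipins and CIDE proteins, several of which are targets of the nuclear receptor PPARG. Dietary cholesterol lowers the activity of SREBP2, the factor that drives cholesterol synthesis, and its oxidised derivatives activate LXR, which drives cholesterol export. Injured liver recruits monocyte-derived macrophages, activates stellate cells that lay down collagen, and expands cells with bile duct markers. Mouse liver is also strongly sex-dimorphic: the more continuous growth hormone release of females maintains a set of cytochrome P450 and sulfotransferase genes at high levels.

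Depth was similar in both groups, at 16680210 to 20018621 reads in the LF controls and 17048597 to 19078940 in the HFCF controls, and the 10 most abundant genes held 15.58% to 18.1% of the reads of the LF controls and 15.74% to 17.73% in the HFCF controls. LF control 1 stood apart from its group. Its mean Pearson correlation with the other LF controls, over log-scale expression of all tested genes, was 0.9781, against 0.9849 to 0.9853 for the others. It held 172 CPM (read counts scaled to a common library size) of Col5a2, a fibrillar collagen chain, against 4.46 to 6.06 in the other LF controls. Macrophage and matrix genes were also higher in it, and values without this library stand beside results that it moved. The 4 exocrine pancreas genes that were found summed to at most 0.553 CPM in any library, and the hepatocyte markers described below were abundant in all of them. HF control 1 lay above the other HF controls for many of the same genes, which widens the spread of the HF group.

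Of 14755 genes tested, 5199 (35.2%) changed at an adjusted p under 0.05 (edgeR quasi-likelihood test, Benjamini-Hochberg adjustment over all genes tested). 2721 genes (18.4%) were higher and 2478 (16.8%) lower in the HFCF controls, so any count of changed genes below has to be read against these shares. The median log2 difference, HFCF minus LF, over all genes tested was -0.03. Among changes of at least 2-fold the split was uneven: 1251 genes (8.48%) were higher and 369 (2.5%) lower. In 4940 genes (33.5%) the 2 groups did not overlap. By comparison, the HF and LF controls differed at 99 of 14216 genes (0.696%) and the HFCF and HF controls at 4526 of 14701 (30.8%). The first of these shares the LF libraries with the main comparison and the second shares the HFCF libraries. The HF against LF count fell to 10 without HF control 3, and the count of HFCF against HF was 2454 without HFCF control 2 and 6530 without HF control 1.

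**Figure D1:**
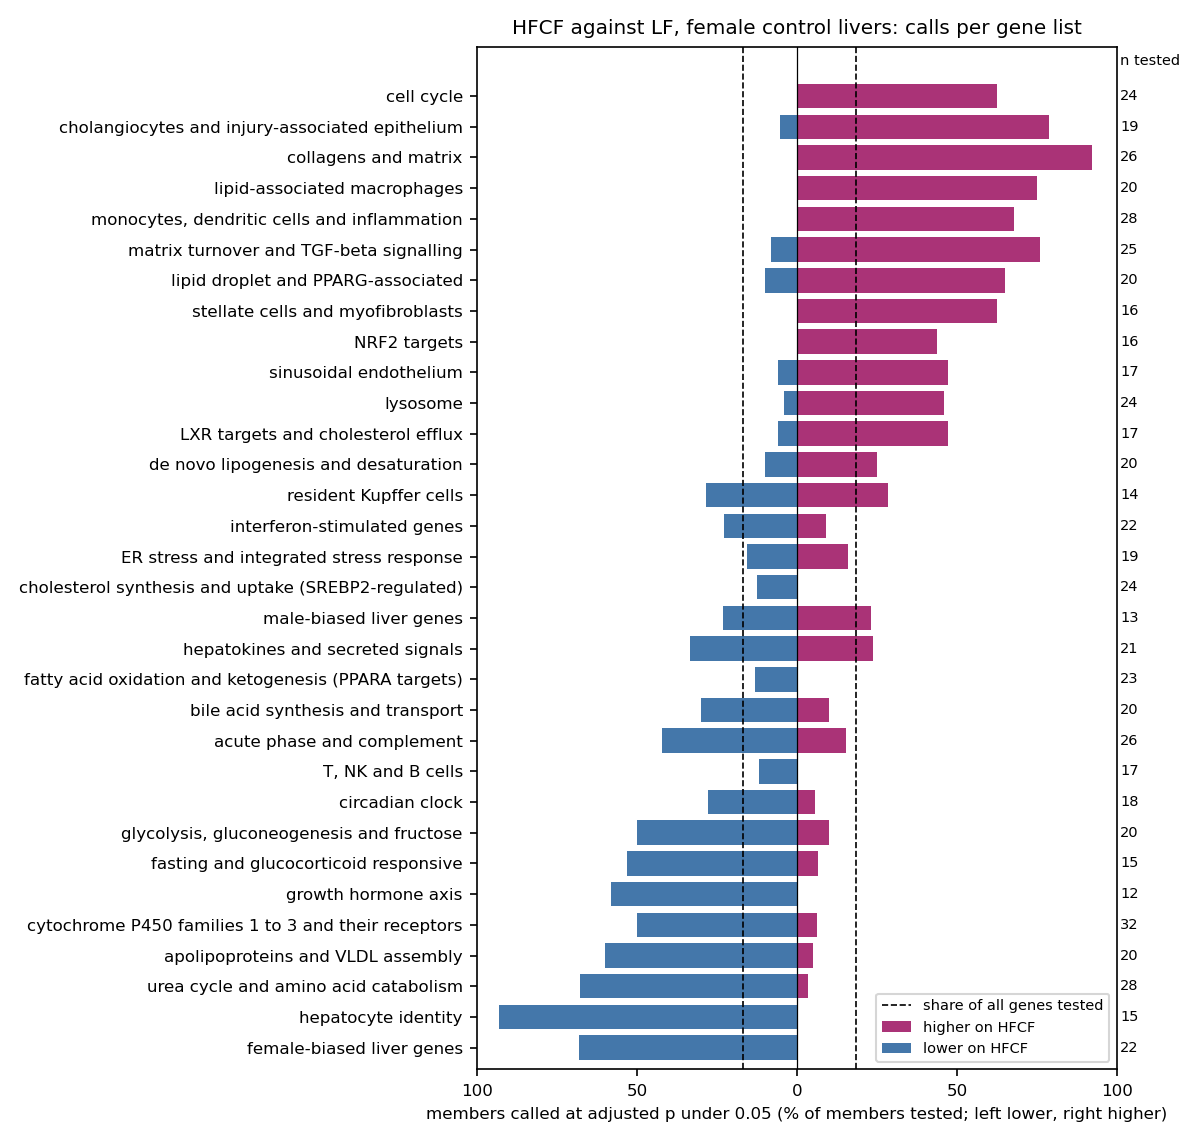
Share of the tested members of each gene list that passed the test in HFCF against LF controls, for lists with at least 10 tested members (bars to the right, percent higher; bars to the left, percent lower). The dashed lines mark the shares over all 14755 genes, 18.4% higher and 16.8% lower; collagens, bile duct markers and cell cycle genes extend to the right, and hepatocyte, urea cycle and female-biased genes to the left.

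Genes that build and coat lipid droplets were higher in the HFCF controls. Of 22 genes associated with droplets or with PPARG, 20 passed the filter on low counts; 13 rose, 2 fell and 5 did not pass the test, with a median log2 difference of 1.01. Pparg itself, on chr6:115360951-115490399 (GRCm38, plus strand), was at 7.71, 7.57, 11.1 and 14.2 CPM in the 4 LF controls and at 23.3, 23.6, 21.4 and 24.9 CPM in the 4 HFCF controls. The groups did not overlap, and Pparg rose by 1.17 on the log2 scale (SE 0.18, adjusted p = 0.00148). Per gene length, the authors' FPKM of Pparg averaged 3.51 ± 1.10 (SD, n = 4) in LF and 8.03 ± 0.502 (SD, n = 4) in HFCF controls. Cidec, whose protein fuses droplets into larger ones, was at 7.15, 5.43, 4.77 and 9.44 CPM in the LF and 66.5, 67.7, 42.1 and 78.1 CPM in the HFCF controls, a difference of 3.20 on the log2 scale (SE 0.24, adjusted p = 0.000161). Its FPKM went from 3.70 ± 1.17 to 34.9 ± 8.40 (SD, n = 4 each), so that it was close to Pparg per length in LF livers and several times above it in HFCF livers. Plin4, a perilipin, was at 18.9, 18.1, 27.3 and 19.8 CPM in LF and 112, 139, 72.7 and 124 CPM in HFCF controls (log2 2.38, SE 0.20, adjusted p = 0.000213); its locus overlaps Hdgfl2, and the counting was not strand-specific. All 4 HFCF libraries lay above all 4 LF libraries for these 3 genes, with HFCF control 3 the lowest of its group for each of them. None of the 3 passed in HFCF against HF controls (adjusted p = 0.101, 0.0663 and 0.172). Over the list, 5 of 20 genes rose and 2 fell in that comparison, where 30.8% of all genes changed. In HF against LF controls 2 of 19 rose, Plin4 and Fitm1, and 0 fell, where 0.696% of all genes changed.

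Other droplet genes that rose included Mogat1, a monoacylglycerol acyltransferase, with 0.454, 0.379, 0.698 and 1.57 CPM in LF and 7.08, 3.62, 6.78 and 5.28 CPM in HFCF controls. Its log2 difference was 2.81 (adjusted p = 0.00111) and 3.42 without LF control 4, the highest of its group; its locus overlaps BC035947. Fitm1, which partitions triglyceride into droplets, was 2.34 higher on the log2 scale, and Clstn3 was 1.88 higher. Osbpl3, an oxysterol-binding-protein relative, was at 13.4, 2.71, 3.49 and 3.20 CPM in LF and 102, 104, 76.7 and 76.5 CPM in HFCF controls. LF control 1 was the highest of the LF libraries, and the log2 difference was 3.93 with it and 4.81 without it. Of the fatty acid carriers, Cd36, a translocase, rose by 0.86 (adjusted p = 0.000679) and Fabp4 by 1.71 (2.34 without LF control 1). Lpl, lipoprotein lipase, was at 117 CPM in LF control 1, 10.9 to 17.5 CPM in the other LF controls and 154.5 to 273 CPM in the HFCF controls. It was higher by 2.41 on the log2 scale (adjusted p = 0.0208) and by 3.87 without LF control 1; the call was lost without LF control 2 (adjusted p = 0.0537). The other lipases of the list did not pass: Pnpla2, which encodes ATGL, had a log2 difference of -0.06 (adjusted p = 0.743) and Lipe, hormone-sensitive lipase, of -0.13 (adjusted p = 0.625). Aqp7, a glycerol channel, had 8 reads over the 4 LF libraries and 176 over the HFCF libraries, a depth-scaled ratio of 22.1 (95% Poisson interval 11 to 51.9, counting error only). LF control 1 held 0.397 CPM of Aqp7 and the other LF controls 0 to 0.0631 CPM, so the ratio rests largely on that library; the fitted log2 was 4.15 with it and 6.39 without it. The members that fell were G0s2, an inhibitor of the triglyceride lipase ATGL, by 1.08, and Plin5, the perilipin that docks droplets to mitochondria, by 0.62 on the log2 scale. Plin2, the main droplet coat of hepatocytes, at 235 FPKM in LF and 243 FPKM in HFCF controls on average, had a log2 difference of 0.03 (adjusted p = 0.937), with overlapping groups. Of 8 adipocyte markers, 6 were found and 3 passed the filter on low counts; Fabp4 rose and Adrb3 fell, and the summed level was 793 to 1216 CPM in LF and 637 to 1336 CPM in HFCF controls. Adipoq, a hormone gene that defines fat cells, was found but too low to be tested.

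**Figure D2:**
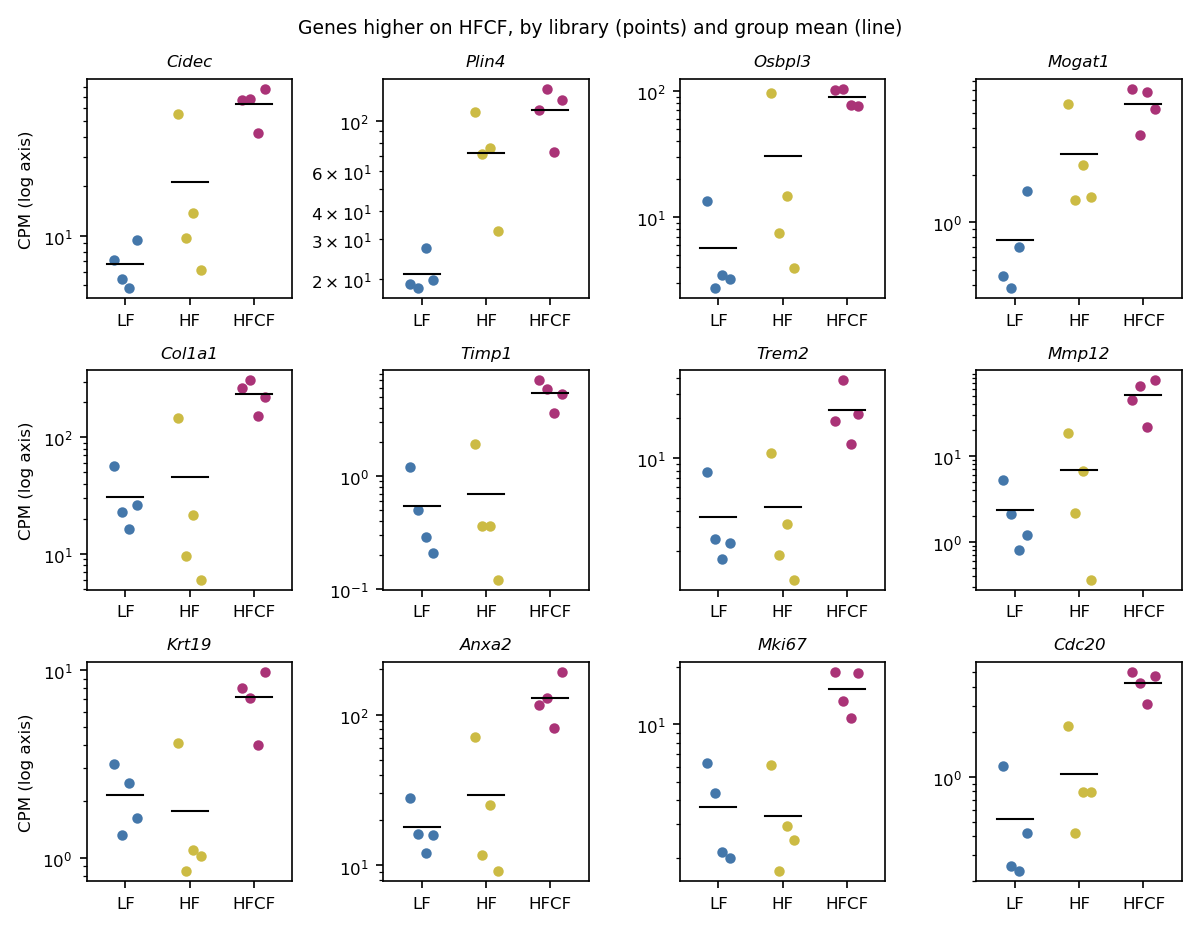
CPM on a log axis of 12 genes that rose in HFCF against LF controls, 1 point per library in the LF, HF and HFCF controls (4 each). Cidec lies between 4.77 and 9.44 CPM in LF and between 42.1 and 78.1 CPM in HFCF controls; HF control 1 is the highest HF library for all 12 genes.

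Lipogenic genes did not move as a block. Of 20 genes of fatty acid synthesis, desaturation and esterification, all tested, 5 rose and 2 fell. The share called, 35.0%, was near the 35.2% of all genes, and the median log2 difference was 0.29. Scd1, which makes monounsaturated fatty acids, was at 9645, 28740, 7072 and 9522 CPM in LF and 43100, 30130, 43400 and 39730 CPM in HFCF controls, so the lowest HFCF library was only just above LF control 2. It rose by 1.47 on the log2 scale (adjusted p = 0.0182), by 2.12 without LF control 2, and the call was lost without LF control 4 (adjusted p = 0.0548). Gpam, the mitochondrial acyltransferase that starts glycerolipid synthesis, rose by 1.15 (adjusted p = 0.00167), Fads2 by 0.74 and Elovl3, at 0.509 CPM on average in LF controls, by 2.77 (2.14 without HFCF control 3). Scd2 passed the test (log2 1.84, adjusted p = 0.0365) in the full set and in 2 of the 8 fits that left out 1 library; its log2 difference was 3.12 without LF control 1. Fasn, fatty acid synthase, ranged from 481 to 1778 CPM in LF and from 1001 to 1614 CPM in HFCF controls and did not pass (log2 0.36, adjusted p = 0.475). Mlxipl, which encodes the carbohydrate-responsive factor ChREBP, fell by 1.03 (adjusted p = 0.00088), with 781, 679, 614 and 638 CPM in LF and 319, 289, 415 and 340.4 CPM in HFCF controls. Dgat2, which makes the final bond of triglyceride, fell by 0.61. Without LF control 4 the count of lipogenic genes that rose was 3.

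Cholesterol synthesis genes in the HFCF controls were near their LF level, whereas their HF level was above both on average. Of 24 genes of the SREBP2-regulated pathway, all tested, 0 rose and 3 fell against LF, 12.5% of the list, which is under the share of all genes called; the median log2 difference was -0.16. Sqle, squalene epoxidase, was at 42.4, 44.4, 13.4 and 18.5 CPM in LF, 142, 23.3, 61.4 and 35.5 CPM in HF and 28.98, 23.02, 20.2 and 33.97 CPM in HFCF controls. Its HFCF minus LF difference was -0.20 (SE 0.35, adjusted p = 0.691). Hmgcs1, a synthase early in the pathway, was at 110.4, 149, 91.4 and 110.2 CPM in LF, 612, 180.3, 293 and 184 CPM in HF and 157, 134, 142 and 173 CPM in HFCF controls. The 3 groups overlapped for Sqle, and HF control 1 was the highest library for both genes. Over the list, the median log2 difference was 0.72 for HF minus LF, where 0 of 24 genes passed, and -0.88 for HFCF minus HF, where 12 of 24 fell; each of these shares a group of libraries with the main comparison. The 3 members that fell against LF act late in the pathway: Tm7sf2 by 1.07, Ebp by 0.82 and Hsd17b7 by 0.40 on the log2 scale. The reads of Tm7sf2 may include those of the overlapping Vps51, and Hsd17b7 lost its call in 5 of the 8 fits without 1 library and with all 6 female groups in 1 fit.

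Some genes of cholesterol export and storage were higher. Of 17 LXR targets and efflux genes, all tested, 8 rose and 1 fell (median log2 0.36). Abcg1, which loads cholesterol onto lipoproteins, was at 11.2, 15.5, 9.71 and 7.71 CPM in LF and 32.1, 40.4, 27.7 and 32.4 CPM in HFCF controls; it rose by 1.56 (SE 0.20, adjusted p = 0.000678) without overlap. Abca1, another cholesterol exporter, rose by 0.55 and Soat1, which esterifies cholesterol for storage, by 0.88. The biliary exporters Abcg5 and Abcg8 had log2 differences of 0.11 and 0.07 and did not pass. Soat2 did not pass either (log2 -0.17, adjusted p = 0.42). The other members that rose were Scd1, Mylip, Lpcat3, Smpdl3a and Lipa, which are not exporters. Nr1h3, which encodes LXR alpha, fell by 0.43. Of 21 bile acid genes, 20 were tested, 2 rose and 6 fell (median log2 -0.26). Slc10a1, the uptake transporter for bile acids from blood, was at 422, 773, 747 and 880.4 CPM in LF and 272, 216, 345 and 196 CPM in HFCF controls and fell by 1.49 (adjusted p = 0.00168). Abcb11, the canalicular bile salt pump, fell by 0.68, whereas Abcc4, a basolateral export pump, rose by 1.43 (adjusted p = 0.00122). Cyp7a1, the rate-limiting enzyme of bile acid synthesis, ranged from 33.2 to 312 CPM in LF and from 62.4 to 449.7 CPM in HFCF controls and did not pass (log2 0.59, adjusted p = 0.492). The count of bile acid genes that rose was 1 in 6 of the 8 fits without 1 library.

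**Figure D3:**
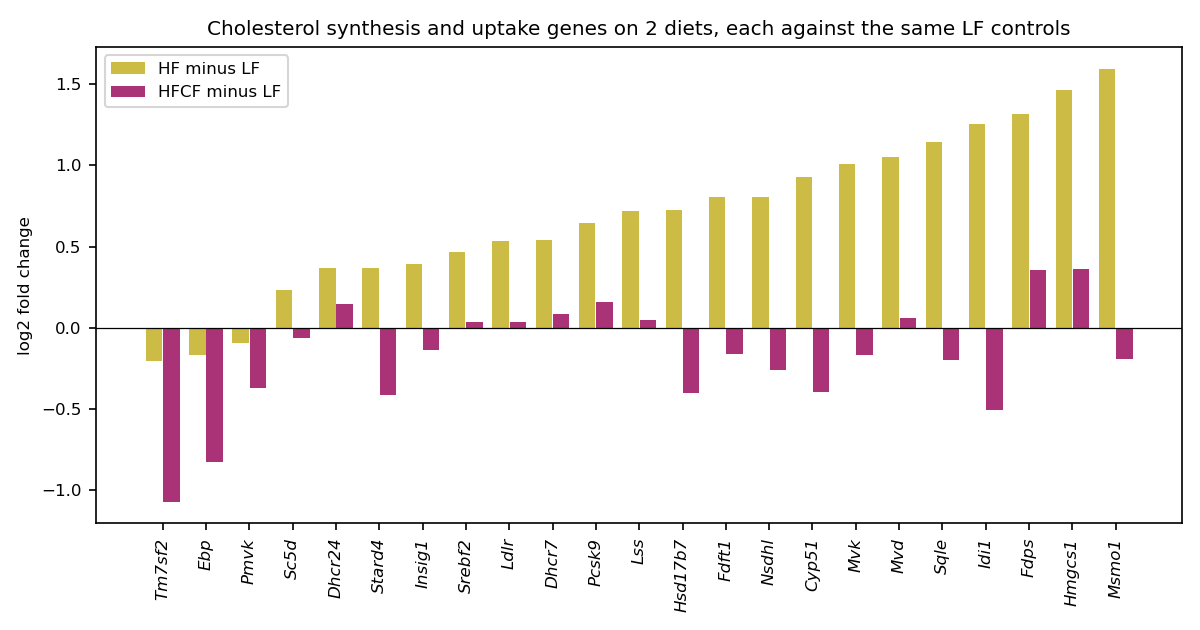
Fitted log2 differences of 23 of the 24 cholesterol synthesis and uptake genes for HF minus LF and HFCF minus LF controls (4 libraries per group; both bars of a gene share the same LF libraries). Over all 24 genes the median is 0.72 for HF minus LF and -0.16 for HFCF minus LF.

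Glucose production and fasting-responsive genes were lower. Of 20 genes of glucose and fructose metabolism, all tested, 10 fell and 2 rose (median log2 -0.42). G6pc, which releases glucose from hepatocytes, was at 595, 450.4, 518 and 459 CPM in LF and 197, 198, 141 and 214 CPM in HFCF controls, a fall of 1.47 (SE 0.15, adjusted p = 0.00032) without overlap. Pck1, which commits substrate to gluconeogenesis, fell by 1.20 (adjusted p = 0.0192), and this call was lost without HFCF control 1 or 2. It fell by 0.71 without LF control 1. Khk, ketohexokinase, the first enzyme of fructose use, fell by 0.48, kept its call in 3 of 8 fits without 1 library and lost it with all 6 female groups in 1 fit. The members that rose, Tkt and Pgd, belong to the pentose phosphate pathway; the count that rose was 1 in 6 of the 8 fits without 1 library. Among 15 fasting and glucocorticoid genes 8 fell and 1 rose (median log2 -0.66): Lepr, the leptin receptor, went from 56.95, 104, 81.5 and 86.6 CPM to 24.8, 28.8, 20.2 and 27.9 CPM (log2 -1.73, adjusted p = 0.00031), and Gadd45g fell by 1.67. Lepr averaged 12.1 CPM in the HF controls, below both other groups. Its log2 difference was -2.77 for HF minus LF (adjusted p = 0.0114) and 1.08 for HFCF minus HF (adjusted p = 0.0343). Cdkn1a, the cell cycle inhibitor p21, was the member that rose, by 2.03 on the log2 scale. The counts of members that fell in these lists were 5 each without HFCF control 2. Of 24 fatty acid oxidation and ketogenesis genes 23 were tested, 0 rose and 3 fell (13.0% called, median log2 -0.25). The count of oxidation genes that fell was 12 without LF control 1 and 1 without LF control 4, HFCF control 1, 2 or 5.

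Collagens and other matrix genes were higher almost throughout the list. Of 26 genes, all tested, 24 rose and 0 fell, with a median log2 difference of 1.45. Col1a1, a chain of the main scar collagen, was at 56.3, 23.04, 16.3 and 26.4 CPM in LF and 264, 306, 152 and 220.4 CPM in HFCF controls; it rose by 2.90 on the log2 scale, or 7.48-fold (SE 0.37, adjusted p = 0.000687). Its partner Col1a2 rose by 2.40 and Col3a1 by 2.54, and for all 3 genes LF control 1 was the highest LF library and HFCF control 3 the lowest HFCF library, without overlap. The basement membrane chains Col4a1 and Col4a2 rose by 1.81 and 1.68. Lox, which cross-links collagen, was at 1.42, 0.568, 0.0581 and 0.629 CPM in LF and 3.64, 6.05, 1.66 and 5.59 CPM in HFCF controls (log2 2.6, adjusted p = 0.00828; 3.28 without LF control 1). The members that did not pass were Fn1 (log2 -0.33), which hepatocytes also secrete, and Col5a2. For Col5a2 the log2 difference was -0.96 (adjusted p = 0.492) with all libraries, and 2.20 (adjusted p = 0.000127) without LF control 1, the library that held 172 CPM.

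Of 26 genes of matrix turnover and TGF-beta signalling, 25 were tested, 19 rose and 2 fell (median log2 1.21). Timp1, an inhibitor of matrix-degrading proteases, was at 1.19, 0.505, 0.291 and 0.210 CPM in LF and 6.98, 5.85, 3.57 and 5.28 CPM in HFCF controls. It rose by 3.25 (SE 0.44, adjusted p = 0.00088), and by 3.99 without LF control 1; its locus overlaps Syn1. Mmp12, the macrophage elastase, was at 5.28, 2.15, 0.814 and 1.21 CPM in LF and 45.2, 65.1, 21.8 and 75.7 CPM in HFCF controls (log2 4.42, adjusted p = 0.000598; 5.21 without LF control 1). Mmp13, a collagenase, rose by 3.76, by 4.70 without LF control 1 and by 3.06 without HFCF control 5, whose 15.8 CPM was the highest value. The ligands Tgfb1, Tgfb2 and Tgfb3 rose by 1.03, 2.20 and 1.21, Tgfb2 by 2.81 without LF control 1. The receptor Tgfbr2, at 28.6, 24.9, 22.7 and 22.6 CPM in LF and 77.98, 86.01, 67.6 and 67.6 CPM in HFCF controls, rose by 1.56 (adjusted p = 0.000153). The members that fell were Smad7, the inhibitory SMAD, by 0.63 and Smad9, a transducer of BMP signals, by 1.80. Both averaged less in the HF controls than in the HFCF controls. Smad9 averaged 12.4 CPM in LF, 0.711 CPM in HF and 3.64 CPM in HFCF controls. Its log2 difference was -4.10 for HF minus LF (adjusted p = 0.00829) and 2.33 for HFCF minus HF (adjusted p = 0.00846). Smad7 averaged 29.8, 16.4 and 19.8 CPM in LF, HF and HFCF controls. Of 17 stellate cell and myofibroblast markers 16 were tested, 10 rose and 0 fell (median log2 0.57). Among them, Pdgfrb rose by 1.02 and Lrat, whose enzyme esterifies retinol in quiescent stellate cells, by 0.61. Acta2, the smooth muscle actin of myofibroblasts, was at 6.01, 2.08, 17.3 and 1.94 CPM in LF and 4.94, 3.67, 2.71 and 8.39 CPM in HFCF controls and did not pass (log2 -0.50, adjusted p = 0.564). The count of stellate markers that rose was 6 without LF control 3, LF control 4 or HFCF control 1, and 4 without HFCF control 2; Pdgfrb lost its call in 4 of the 8 fits. The summed level of the 17 stellate markers was 494 to 609 CPM in LF and 713 to 929 CPM in HFCF controls; its part in the collagen differences was not tested.

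Markers of lipid-associated macrophages, which engulf lipid and debris, were higher. Of 20 markers, all tested, 15 rose and 0 fell (median log2 1.32). Trem2, the lipid-sensing receptor that defines these cells, was at 7.77, 2.46, 1.74 and 2.31 CPM in LF and 18.8, 38.1, 12.8 and 21.3 CPM in HFCF controls. It rose by 2.62 (SE 0.48, adjusted p = 0.00293) and by 3.36 without LF control 1. Gpnmb, a transmembrane glycoprotein of such cells, was at 17.8, 1.26, 0.174 and 0.892 CPM in LF and 56.95, 91.9, 41.2 and 47.3 CPM in HFCF controls, so LF control 1 held many times the level of any other LF library. Its log2 difference was 3.51 (adjusted p = 0.0122) with LF control 1 and 6.23 without it. Spp1, osteopontin, which duct cells also make, rose by 2.44, Itgax, which encodes CD11c, by 2.33 and Lgals3 by 2.0. The summed level of the 20 markers, most of it Apoe, which hepatocytes express too, was 25960 to 26700 CPM in LF and 23540 to 29050 CPM in HFCF controls.

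Resident Kupffer cell markers split. Of 14, all tested, 4 rose and 4 fell (median log2 0.22). Cd5l rose by 1.40 and Adgre1, which encodes F4/80, by 1.69. Cd163, the haemoglobin scavenger receptor, was at 0.624, 20.8, 22.2 and 11.1 CPM in LF and 1.94, 1.04, 1.31 and 2.06 CPM in HFCF controls and fell by 3.13 (adjusted p = 0.00995). LF control 1, at 0.624 CPM, lay below every HFCF library for Cd163. Clec4f, the lectin specific to Kupffer cells, was at 94.8, 244, 172 and 111 CPM in LF and 191, 128, 152 and 155 CPM in HFCF controls and did not pass (log2 -0.02, adjusted p = 0.963). Timd4, of embryo-derived Kupffer cells, did not pass (log2 -1.25, adjusted p = 0.0726), but passed at -1.53 without LF control 1 and at -1.75 without HFCF control 3; Marco, a scavenger receptor, did not pass either (log2 -1.54, adjusted p = 0.0559) and passed at -2.46 without HFCF control 3.

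Of 28 monocyte, dendritic cell and inflammation genes, all tested, 19 rose and 0 fell (median log2 1.28). Ccr2, the receptor that brings monocytes into tissue, was at 8.28, 4.92, 3.31 and 4.35 CPM in LF and 20.02, 29.4, 11.6 and 20.9 CPM in HFCF controls (log2 1.93, SE 0.32, adjusted p = 0.00187). Clec7a, the beta-glucan receptor dectin-1, rose by 2.38, the antigen-presenting H2-Aa by 1.28 and Il1b by 1.39. Cx3cr1 rose by 2.26 (adjusted p = 0.0204) and by 3.09 without LF control 1, and lost the call without LF control 2 or HFCF control 2; its locus overlaps several genes. The summed level of these 28 genes was 451.5 to 1099 CPM in LF and 1424 to 2337 CPM in HFCF controls. Lymphocyte markers did not follow: of 21 T, NK and B cell genes 17 were tested, 0 rose and 2 fell (11.8% called, median log2 -0.33). The count that fell was 0 without LF control 1, 2 or 3 or HFCF control 2 or 5 and 1 without HFCF control 1 or 3, and 1 member rose without LF control 1 or HFCF control 5. Ms4a1, which encodes the B cell antigen CD20, fell by 1.33 and kept its call in 2 of the 8 fits without 1 library. Cd3e, a chain of the T cell receptor complex, was at 2.27, 0.568, 1.34 and 1.15 CPM in LF and 1.21, 1.44, 1.01 and 1.16 CPM in HFCF controls (log2 -0.19, adjusted p = 0.724). Themis, a gene known for its part in T cell development, was among the 12 largest rises of the genes that passed the test, averaged 1 CPM or more and had no overlap between groups, with 1.13, 0, 0.407 and 0.0524 CPM in LF and 10.2, 13.4, 10.8 and 5.33 CPM in HFCF controls (log2 4.57, adjusted p = 0.000954; 5.93 without LF control 1). Of 10 neutrophil genes 4 were tested and Csf3r rose by 0.88, a call that was lost with all 6 female groups in 1 fit. The count of neutrophil genes that rose was 2 without LF control 1 and 3 without HFCF control 3. Among 18 endothelial genes 17 were tested, 8 rose and 1 fell (median log2 0.48), and the count that fell was 3 without LF control 1 and 0 without HFCF control 1, 2 or 5. Vwf, a marker of large vessels that can mark altered sinusoids, was at 9.30, 8.27, 9.07 and 10.4 CPM in LF and 19.8, 22.5, 22.1 and 20.2 CPM in HFCF controls and rose by 1.15 (SE 0.10, adjusted p = 0.000244). Stab2, a scavenger receptor of sinusoids, rose by 0.48 (adjusted p = 0.0481) and kept its call in 2 of 8 fits.

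Bile duct markers and genes of injured epithelium were higher. Of 20, 19 were tested, 15 rose and 1 fell (median log2 1.52). The duct keratin Krt19 was at 3.18, 1.33, 2.50 and 1.63 CPM in LF and 7.997, 7.09, 3.97 and 9.76 CPM in HFCF controls, a rise of 1.70 (SE 0.33, adjusted p = 0.00387), and Krt7 rose by 2.01. The surface protein Epcam was at 6.30, 3.35, 3.31 and 4.04 CPM in LF and 15.9, 16.1, 11.96 and 14.9 CPM in HFCF controls (log2 1.75, adjusted p = 0.000589). Neither gene had overlapping groups. Cldn4, a tight junction claudin of ducts, rose by 2.74 from 0.360 ± 0.195 CPM (SD, n = 4) to 2.51 ± 1.08 CPM (SD, n = 4). Anxa2, an annexin raised in injured epithelium, was at 28.1, 16.1, 12.2 and 15.99 CPM in LF and 116, 128, 81.04 and 192 CPM in HFCF controls (log2 2.80, adjusted p = 0.000399). Onecut1, a liver transcription factor that is needed for duct development and is also active in hepatocytes, fell by 1.33. The summed level of the 20 genes was 505 to 745 CPM in LF and 1318 to 2403 CPM in HFCF controls.

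Cell cycle genes were higher as well: of 24, all tested, 15 rose and 0 fell (median log2 1.62). Mki67, which encodes the proliferation antigen Ki-67, was at 6.30, 4.36, 2.15 and 1.99 CPM in LF and 18.8, 13.3, 10.9 and 18.5 CPM in HFCF controls and rose by 2.02 (SE 0.35, adjusted p = 0.00235). Top2a rose by 2.61 and Bub1, a spindle checkpoint kinase, by 3.80. Bub1 was near the floor in LF controls, at 0.0587 CPM on average against 0.912 CPM in HFCF controls, so the size of its rise is uncertain. It did not pass in the labelled knockouts (log2 1.83, adjusted p = 0.0951). Cdc20, which triggers anaphase, rose by 2.96, and by 3.75 without LF control 1; its locus overlaps Elovl1. The 9 members that did not pass included Ccnd1, which encodes cyclin D1 (log2 0.37, adjusted p = 0.0766), Pcna (log2 0.04) and Rrm2 (log2 -0.19). Which liver cells held these transcripts was not tested.

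The largest falls were in genes that female livers express at high levels. Of 22 female-biased genes, all tested, 15 fell and 0 rose, with a median log2 difference of -2.30, and the summed level of the list went from 6582 to 7873 CPM in LF to 1499 to 2533 CPM in HFCF controls; in HF controls it was 3002 to 6313 CPM. Among the 12 largest falls were 4 genes that sit together in the Cyp3a cluster of chromosome 5 and encode steroid- and drug-oxidising P450 enzymes; 3 of these are on the list. Their promoters are shown because genes that moved together this far are near-copies of each other: the 250 bases before each start site, from RefSeq (GRCm38.p6, minus strand, 5′ to 3′), are printed with any match to CAAAGTCCA, an HNF4A-type motif, in capitals.
Cyp3a16: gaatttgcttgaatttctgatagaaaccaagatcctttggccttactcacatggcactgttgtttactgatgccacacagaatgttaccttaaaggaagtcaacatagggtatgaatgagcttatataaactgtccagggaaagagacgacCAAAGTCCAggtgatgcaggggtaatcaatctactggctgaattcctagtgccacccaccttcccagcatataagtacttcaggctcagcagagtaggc
Cyp3a41a: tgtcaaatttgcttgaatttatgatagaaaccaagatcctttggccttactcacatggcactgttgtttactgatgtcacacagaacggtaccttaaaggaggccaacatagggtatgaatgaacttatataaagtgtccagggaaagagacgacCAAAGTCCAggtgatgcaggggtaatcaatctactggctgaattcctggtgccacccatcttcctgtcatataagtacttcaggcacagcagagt
Cyp3a41b: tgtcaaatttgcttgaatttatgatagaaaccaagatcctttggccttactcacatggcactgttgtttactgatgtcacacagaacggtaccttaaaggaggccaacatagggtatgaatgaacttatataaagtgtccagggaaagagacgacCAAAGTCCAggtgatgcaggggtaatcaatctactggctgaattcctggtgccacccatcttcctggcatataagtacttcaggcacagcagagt
Cyp3a44: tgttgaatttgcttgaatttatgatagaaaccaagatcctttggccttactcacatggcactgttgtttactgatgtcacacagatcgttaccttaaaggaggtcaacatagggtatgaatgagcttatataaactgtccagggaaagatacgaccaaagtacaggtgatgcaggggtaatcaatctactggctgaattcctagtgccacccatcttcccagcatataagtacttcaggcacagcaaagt
The windows lie at chr5:145469724-145469973 for Cyp3a16, chr5:145720137-145720386 for Cyp3a41a, chr5:145584731-145584980 for Cyp3a41b and chr5:145805875-145806124 for Cyp3a44. Pairs of them were 94.3% to 99.6% identical over the aligned bases, with 1 mismatch in 250 between Cyp3a41a and Cyp3a41b. The motif began 99 bases before the start in Cyp3a16 and 95 bases before it in Cyp3a41a and Cyp3a41b; Cyp3a44 carries C7A relative to that motif, counted from 1 at its 5′ end, and so has no match. Searched on both strands, these letters occur in 126 of 32851 promoter windows (0.384%), in 4 of the 10 leading lower genes with a window (the fourth is Cyp2c69) and in 0 of the 11 leading higher genes. The Cyp3a matches lie in near-identical windows and are not independent, so the counts cannot be read as an enrichment. A match is a description of the letters only.

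Cyp3a16, on chr5:145436309-145469723, was at 138, 244, 248 and 213 CPM in LF and 3.49, 0.794, 3.17 and 3.48 CPM in HFCF controls, a fall of 6.30 on the log2 scale, 78.6-fold (SE 0.37, adjusted p = 5.58e-05). In the HF controls it was at 0.504, 191, 1.70 and 86.97 CPM, very low in HF controls 1 and 3, within the LF range in HF control 2 and below it in HF control 4. Cyp3a44 was at 48.4, 158, 226 and 128 CPM in LF and 1.21, 1.14, 0.904 and 2.06 CPM in HFCF controls (log2 -6.75, SE 0.50, adjusted p = 0.000153). Cyp3a41a fell by 5.63 and Cyp3a41b by 5.56. Because the genes are so alike, how reads were divided between them is uncertain. Cyp3a11, the main Cyp3a gene of both sexes, did not fall but rose, from 1553, 1161, 1006 and 1128 CPM in LF to 2168, 2098, 1977 and 2271 CPM in HFCF controls (log2 0.78, adjusted p = 0.00398). Over 33 genes of P450 families 1 to 3 and their receptors, 32 were tested, 16 fell and 2 rose (median log2 -0.69). Cyp2c69 fell by 3.68 (adjusted p = 0.000924), while the female-biased Cyp2b13 did not pass (log2 -0.69, adjusted p = 0.356) except without LF control 1 (log2 -1.05).

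A further 3 of the leading falls carry a STAT-type motif, TTCNNNGAA, before their start sites, shown in capitals in an 81-base window around it.
A1bg: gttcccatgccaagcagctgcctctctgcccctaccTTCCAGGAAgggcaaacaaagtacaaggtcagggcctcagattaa
Sult3a1: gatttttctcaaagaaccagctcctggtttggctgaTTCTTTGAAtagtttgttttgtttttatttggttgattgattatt
Hamp: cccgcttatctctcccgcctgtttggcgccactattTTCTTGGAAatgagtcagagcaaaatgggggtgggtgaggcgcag
These windows are chr15:60921310-60921390 (minus strand) for A1bg, chr10:33857577-33857657 (plus strand) for Sult3a1 and chr7:30944082-30944162 (minus strand) for Hamp, with the motif starting 84, 109 and 97 bases before the start site. The motif, searched on both strands, occurs in 2306 of 32851 promoters (7.02%), in 3 of the 10 leading lower genes with a window and in 1 of the 11 leading higher genes, Gsta1. These matches too describe the letters only, and binding by any STAT protein was not tested. A1bg, a plasma glycoprotein gene, had the largest fall of the 12: it was at 1526, 122, 692 and 263 CPM in LF, 0.952, 3.44, 1.64 and 4.96 CPM in HF and 6.88, 0.893, 9.40 and 2.95 CPM in HFCF controls. The HFCF minus LF difference was -7.05 (SE 0.96, adjusted p = 0.00088) and -6.17 without LF control 1, and HF minus LF was -7.90 (adjusted p = 0.0113). HF and HFCF levels of A1bg overlapped, far below every LF library; its locus overlaps 4930402D18Rik. Sult3a1, a sulfotransferase, was at 3.29, 68.7, 67.8 and 96.1 CPM in LF and 0.776, 0.397, 2.76 and 0.528 CPM in HFCF controls, with LF control 1 far below its group. Its log2 difference was -5.74 (adjusted p = 0.00178), and -6.68 without HFCF control 3; it overlaps Gm47935. Hamp, which encodes the iron hormone hepcidin and is no member of the female-biased list, was at 1625, 1174, 700 and 719 CPM in LF and 104, 99.9, 143 and 47.95 CPM in HFCF controls, a fall of 3.46 (SE 0.38, adjusted p = 0.000416).

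Of the sulfotransferases, which conjugate steroids and bile acids, Sult2a1 was at 234, 174, 218 and 192 CPM in LF and 10.6, 1.59, 6.13 and 2.80 CPM in HFCF controls and fell by 5.31 and by 5.89 without HFCF control 1, Sult5a1 by 3.89 and Sult2a3 by 3.42. Sult2a1 and Sult2a3 are similar in sequence, so the division of reads between them is uncertain. Cux2, a repressor that is itself female-biased, was at 118, 175, 146 and 149 CPM in LF and 26.4, 4.71, 53.1 and 6.86 CPM in HFCF controls and fell by 2.72, and by 3.54 without HFCF control 3. Of 20 male-biased genes, 13 were tested, 3 rose and 3 fell (median log2 -0.17). Mup20, a male urinary pheromone protein, was at 111, 21.5, 21.6 and 16.4 CPM in LF and 97.3, 500, 255 and 85.3 CPM in HFCF controls. It passed the test (log2 2.41, adjusted p = 0.0284), and its difference was 3.54 without LF control 1, but it lost the call in 4 of the 8 fits without 1 library; Mup genes are near-copies of each other. Mup3 fell by 1.54. Of 12 genes of the growth hormone axis, all tested, 7 fell and 0 rose (median log2 -0.66). Cish and Socs2, targets of STAT5, which relays the growth hormone signal, fell by 1.52 and 1.31, Socs2 by 0.85 without LF control 4. Cish was at 38.1, 32.7, 27.4 and 52.7 CPM in LF and 13.6, 13.0, 14.5 and 12.9 CPM in HFCF controls. Igf1, the growth factor that liver releases in response to growth hormone, was at 648, 713, 602 and 743 CPM in LF and 348, 325, 487 and 304 CPM in HFCF controls, a fall of 0.92 (SE 0.16, adjusted p = 0.00232), while Stat5a and Stat5b had log2 differences of 0.13 and -0.16 and did not pass.

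**Figure D4:**
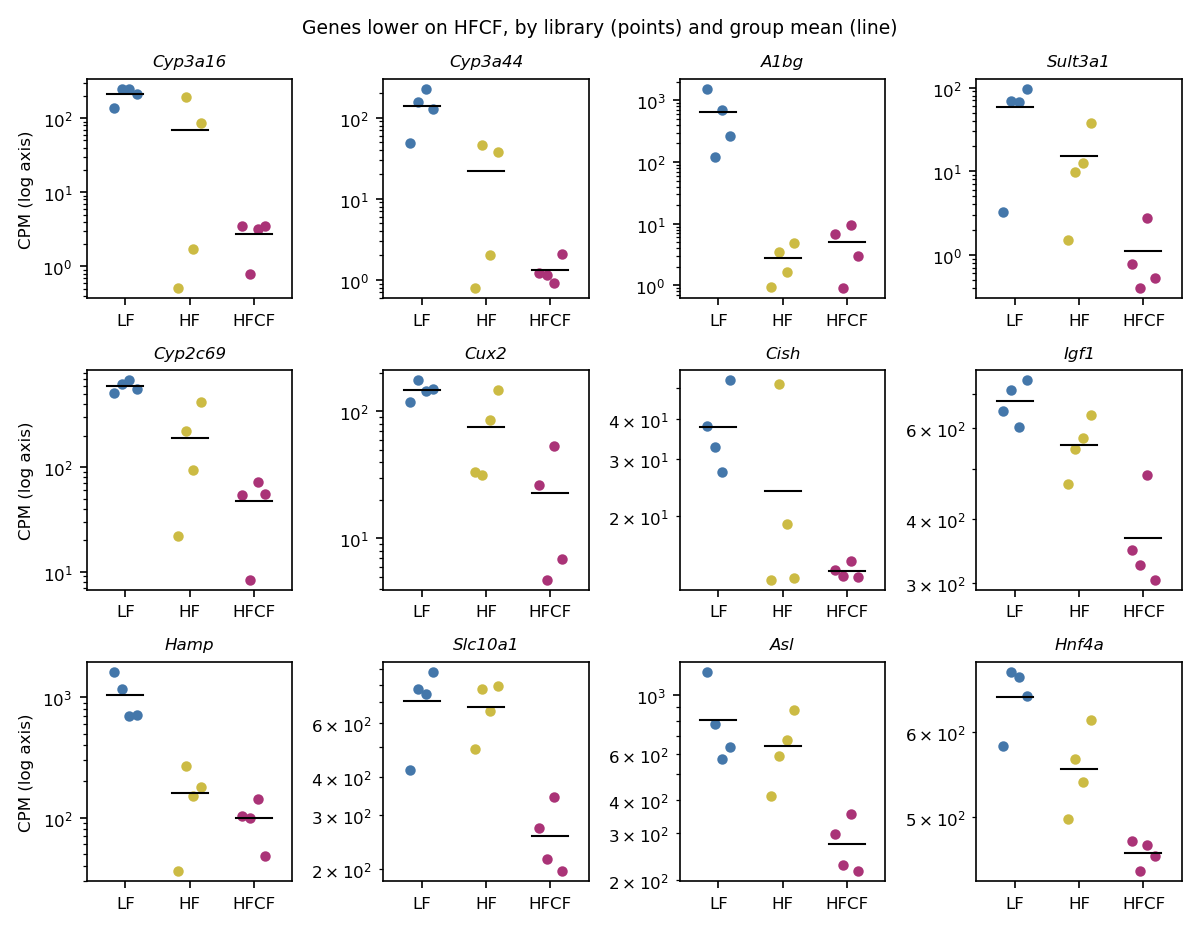
CPM on a log axis of 12 genes that fell in HFCF against LF controls, 1 point per library in the LF, HF and HFCF controls (4 each). Cyp3a16 goes from 138 to 248 CPM in LF to 0.794 to 3.49 CPM in HFCF controls, while Hnf4a moves only from 583 to 683 CPM to 445 to 475 CPM.

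Genes of hepatocyte identity were lower by a smaller amount, almost throughout the list. Of 16 markers, 15 were tested, 14 fell and 0 rose (median log2 -0.81, range -1.68 to -0.04). The count that fell was 10 to 14 over the fits without 1 library. In the labelled knockouts 3 of 15 fell and 0 rose (median log2 -0.61). The summed level of the markers was 109900 to 131600 CPM in LF and 67220 to 83490 CPM in HFCF controls. Hnf4a, the factor that maintains hepatocyte gene expression, was at 583, 683, 676 and 648 CPM in LF and 475, 445, 471 and 460.2 CPM in HFCF controls (log2 -0.52, SE 0.09, adjusted p = 0.00285). Alb, albumin, fell by 0.69 (adjusted p = 0.0152); it kept the call in 6 of the 8 fits without 1 library, with an adjusted p of 0.0593 without HFCF control 1. CPM values are shares of a library, and the hepatocyte markers hold a large share of it; the part that the non-hepatocyte lists above have in these falls was not tested. Of 28 urea cycle and amino acid genes, all tested, 19 fell and 1 rose (median log2 -0.75), the latter count being 0 in 6 of the 8 fits without 1 library. Asl, which splits argininosuccinate in the urea cycle, was at 1221, 779, 574 and 637 CPM in LF and 298, 227, 353 and 215 CPM in HFCF controls, a fall of 1.59 (SE 0.26, adjusted p = 0.00173). Agxt, which detoxifies glyoxylate, fell by 1.94, Hal, which breaks down histidine, by 1.76 and Got1 by 1.67. Of 20 apolipoprotein and VLDL genes, all tested, 12 fell and 1 rose (median log2 -0.69): Apoc3, an inhibitor of lipoprotein clearance, fell by 1.23 (adjusted p = 0.00032) and Apoa1, the main HDL protein, by 0.81. Apoa4 rose by 1.08, a call that was lost with all 6 female groups in 1 fit, and Apob, the scaffold of VLDL, had a log2 difference of -0.04.

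The acute phase list divided by member. Of 27 genes, 26 were tested, 4 rose and 11 fell (median log2 -0.32). Saa1 and Saa2, serum amyloid genes that are near-copies, rose by 2.12 and 2.41; Saa1 was at 66.02, 37.9, 40.6 and 26.5 CPM in LF and 234, 191, 142 and 194 CPM in HFCF controls. Lcn2, an iron-siderophore carrier, was at 24.2, 12.6, 27.4 and 18.8 CPM in LF and 125, 154, 89.8 and 159 CPM in HFCF controls (log2 2.63, SE 0.25, adjusted p = 0.000244). In contrast Fgb, a fibrinogen chain, fell by 0.89 and C3, the central complement component, by 0.64. Of 18 NRF2 targets 16 were tested, 7 rose and 0 fell (median log2 0.48). The glutathione transferase Gsta1 was at 0.794, 0.252, 0 and 0.210 CPM in LF and 6.20, 4.66, 4.32 and 4.75 CPM in HFCF controls (log2 3.92, adjusted p = 0.00088; 4.94 without LF control 1), and Gstm3 rose by 2.36, whereas Nqo1, a classical NRF2 target, had a log2 difference of 0.59 and did not pass. Of 24 lysosome genes, all tested, 11 rose and 1 fell (median log2 0.37); the leading ones, Cd63 (log2 2.40), Ctsk (1.95), Cd68 (1.35) and Ctss (1.25), are rich in macrophages. Of 20 genes of ER stress and the integrated stress response 19 were tested, 3 rose and 3 fell (31.6% called, median log2 -0.09). Atf3, a stress-induced factor, rose by 2.13 and the serine synthesis gene Psat1 by 1.88, while the chaperone Hspa5 had a log2 difference of -0.09. The count that fell ranged from 0 to 4 over the fits without 1 library.

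Beyond the lists, the leading rises, ranked as for Themis, included genes that LF livers hardly expressed. Sprr1a, a cornified envelope precursor of stressed epithelium, had 3 reads over the 4 LF libraries and 734 over the 4 HFCF libraries, a depth-scaled ratio of 245 (95% Poisson interval 83.7 to 1190, counting error only). Its HFCF values were 7.66, 8.93, 3.32 and 17.4 CPM (fitted log2 7.52, adjusted p = 0.000293). Slc35f2, a solute carrier, had 8 and 272 reads, a ratio of 34.1 (17.1 to 79.8), and Tmem72, a membrane protein gene, had 10 and 182 reads, a ratio of 18.3 (9.71 to 38.7); the fitted log2 of Tmem72 was 3.92, and 5.09 without LF control 4. Smpd3, the neutral sphingomyelinase that makes ceramide at membranes, was at 2.04, 1.58, 1.22 and 2.99 CPM in LF and 29.5, 35.7, 22.8 and 32.9 CPM in HFCF controls. It rose by 3.89 (SE 0.24, adjusted p = 6.34e-05), and its locus overlaps Prmt7. Ephb2, a receptor tyrosine kinase for ephrin-B ligands, was at 1.31, 0.757, 0.465 and 0.0524 CPM in LF and 15.95, 16.6, 4.62 and 11.1 CPM in HFCF controls (log2 4.19, adjusted p = 0.000917; 4.84 without LF control 1). Ubd, which encodes the inflammation-induced ubiquitin-like protein FAT10, rose by 3.86, and by 5.92 without LF control 1, which held 2.67 CPM. Shc2, a signalling adaptor, rose by 3.93; its locus overlaps Gm47163.

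The same diet contrast in the labelled knockouts shares no library with the controls. Of 14614 genes tested there, 1754 (12%) changed, 1207 (8.26%) higher and 547 (3.74%) lower. This count was 681 without HFCF labelled knockout 2, 709 without HFCF labelled knockout 4, 939 without HFCF labelled knockout 3 and 3587 without HFCF labelled knockout 1. It was 889 and 1045 without LF labelled knockout 2 and 3. Among 14382 genes tested in both, 1429 were called in both, 28% of the 5099 control calls and 82.2% of the 1739 labelled-knockout calls, and 1428 of them had the same direction. Of the control calls 4864 (95.4%) had the same sign in the labelled knockouts, against 79.8% over all genes. Across all these genes the log2 differences had a Pearson r of 0.843 and a Spearman rho of 0.79; genes are not independent replicates, and no p is given.

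Pparg mRNA was not lower in the labelled knockouts: it averaged 15.02 ± 5.27 CPM (SD, n = 4) in LF and 45.1 ± 9.42 CPM (SD, n = 4) in HFCF labelled knockouts, against 10.1 ± 3.13 and 23.3 ± 1.44 CPM in the controls. Counts over the whole gene do not check the deletion where the floxed part is small, and the labels do not say which exons it spans. Col1a1 differed by 2.90 in the controls and 2.98 in the labelled knockouts (adjusted p = 0.0017), and Trem2 by 2.62 and 2.83 (adjusted p = 0.0017). Of the collagen list 21 of 26 rose in the labelled knockouts, and of the female-biased list 15 of 22 fell and 1 rose. The 12 leading falls all had smaller fitted differences there than in the controls, in which they had been ranked by size. The log2 differences were -3.42 against -7.05 for A1bg and -2.28 against -5.63 for Cyp3a41a. For Sult2a1 and Sult2a3 they were -2.43 against -5.31 and -0.87 against -3.42, without a call in the labelled knockouts (adjusted p = 0.099 and 0.472). Of the droplet list 19 genes were tested in the labelled knockouts, where 8 rose and 3 fell (median log2 0.83). Osbpl3 (log2 3.52), Lpl (3.08) and Pparg (1.60) were among those that rose there. The droplet genes Cidec and Plin4 also had smaller fitted differences in the labelled knockouts than in the controls. Cidec went from 5.91 ± 1.35 to 11.9 ± 5.53 CPM in the labelled knockouts (log2 1.03, adjusted p = 0.0788) and Plin4 from 14.3 ± 2.97 to 15.8 ± 8.53 CPM (log2 0.17, adjusted p = 0.835; SD, n = 4 each). The test of the difference itself, the interaction of genotype and diet, called 0 of 15496 genes with edgeR, where 654 had an unadjusted p under 0.05, and 4 with the DESeq2 Wald test. By edgeR the interaction, labelled knockout minus control, of Cidec was -2.21 on the log2 scale (adjusted p = 0.53) and that of Plin4 was -2.25 (adjusted p = 0.729). Slc39a5, a zinc transporter gene, was also among the lowest p-values with a negative sign (-1.94, adjusted p = 0.53). With a positive sign the lowest p-values belonged to Cbx8 (0.90, adjusted p = 0.844), Apol9a (1.47, adjusted p = 0.978) and Ifit1 (1.49, adjusted p = 0.978). Ifit1 is an interferon-stimulated gene, as is Apol9a. Of 22 genes of the interferon list, all tested, 2 rose and 5 fell in the controls (31.8% called, below the 35.2% of all genes, median log2 -0.07), and 9 rose and 0 fell in the labelled knockouts (median log2 0.43); no member passed the interaction test. In the controls the count that rose was 4 without LF control 1 or 3 and 1 without LF control 4 or HFCF control 5, and the count that fell was 3 without HFCF control 1 or 2.

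**Figure D5:**
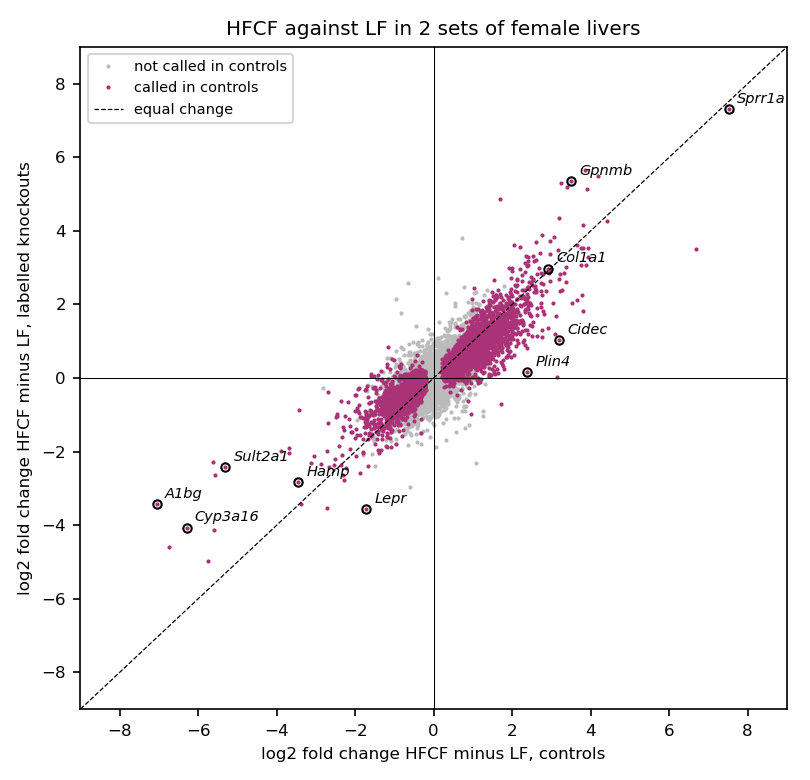
Fitted log2 differences, HFCF minus LF, of each gene tested in both genotypes: the controls on the horizontal axis and the labelled knockouts on the vertical axis, with 4 libraries per group. The dashed line marks equal change; Col1a1 lies near it, while Cidec (3.20 against 1.03) and Plin4 (2.38 against 0.17) lie below it.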

How the data were processed

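RNA from whole liver (Trizol, libraries without strand information) was sequenced by the authors. Per the submitters' processing notes, reads were aligned with STAR 2.6.1 to GRCm38/mm10 and counted with HTSeq 0.6.1, and DESeq2 is named; the annotation release is not given in the sources used here. Per the file headers, the authors deposited raw read counts per gene and FPKM in tables of pairs of groups. The authors' FPKM are counts divided by gene length with 1 constant per library, and were used only to compare levels between genes.

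The HFCF and LF controls stand in different deposited tables, so their raw counts were joined by gene ID: 23151 genes were in both tables, 1414 only in the HFCF and 937 only in the LF table. A gene absent from a table was set to 0, which another table showed to be 1 read in 3059 values; 747848 values repeated between tables were compared and 0 differed. The sources give no other normalization. Depth was 15338182 to 21230279 reads per female library.

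Genes were filtered with filterByExpr and tested with edgeR 4.0.16 (R 4.3.3; TMM factors, glmQLFit and glmQLFTest) on the groups compared, with Benjamini-Hochberg adjustment over all genes tested and a threshold of 0.05. CPM values use the TMM-scaled library sizes. The main fit has a biological coefficient of variation of 0.179. Tested on simulated counts for 14599 genes, it recovered 83.7% of 98 genes changed by a log2 of 1 and 100% of 98 changed by 2, with 9 unchanged genes called. The simulation gave every gene this same coefficient of variation, changed few genes, in balanced directions, and held no outlying library. Its rates are therefore not those of the real comparison. Alternatives were DESeq2 1.42.0 (size factors, Wald test), other filters on low counts, a log2 threshold of 1, all 6 female groups in 1 fit, a block on replicate number and leaving out each library.

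Named genes are up to 12 higher and 12 lower genes, ranked by the size of the log2 difference among those that passed the test, averaged 1 CPM or more, have an informative symbol and show no overlap between groups; in addition any member of the 37 lists (669 genes, 655 found, 618 tested), Pparg, and up to 3 interaction genes in each direction by p. The members and lists were chosen with earlier results of these data known. Promoters came from RefSeq (GRCm38.p6); Sult2a1 and Smpd3 have no entry in that table. Count intervals are exact Poisson at 95%. Results for some genes are not reported here.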

Additional observations from a re-analysis of the deposited data

Results flagged for a closer look

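In groups of 4 libraries a value was singled out where its gap to the nearest of the others relative to the group's range exceeded Dixon's 95% critical value. For normally distributed values, chance alone gives about 1 in 20 groups. CPM values were not checked for this, some rest on a few reads, and genes in the same library are not independent. That rate is therefore no yardstick for the share seen here. Of 387 groups examined, over the named genes in LF, HF and HFCF controls, 50 (12.9%) had such a value. They were not spread evenly: 24 fell on HF control 1 and 11 on LF control 1.

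HF control 1 lay above the other HF controls, in CPM, for Cidec (54.8), Fitm1 (36), Osbpl3 (95.8), Aqp7 (2.46), Scd2 (31.4), Col1a1 (147), Col1a2 (120), Col3a1 (204), Timp1 (1.9), Mmp13 (2.69), Tgfb2 (2.69), Smad9 (1.51), Gpnmb (18.9), Spp1 (240), Cx3cr1 (11.1), Themis (16.5), Krt19 (4.09), Sprr1a (6.67), Slc35f2 (2.69), Ephb2 (7.73), Shc2 (5.04), Tmem72 (0.784), Smpd3 (28.9) and Ubd (8.74). HF control 2 lay above its group, in CPM, for Gadd45g (30.6), Onecut1 (31.8) and Cish (51.3). LF control 1 lay above its group, in CPM, for Osbpl3 (13.4), Aqp7 (0.397), Lpl (117), Scd2 (76.1), Col5a2 (172), Trem2 (7.77), Gpnmb (17.8), Mup20 (110) and Ubd (2.67) and below it, in CPM, for Sult2a3 (7.15) and Mup3 (509). LF control 2 lay above its group, in CPM, for Scd1 (28740) and Dgat2 (902). LF control 3 lay below its group, in CPM, for Apoc3 (1952) and Sprr1a (0). LF control 4 lay above its group, in CPM, for Socs2 (119). HFCF control 1 lay above its group, in CPM, for Ccnd1 (156). HFCF control 2 lay below its group, in CPM, for Abcb11 (356) and Cyp3a16 (0.794). HFCF control 3 lay above its group, in CPM, for Sult3a1 (2.76), Hal (229) and Apoc3 (1114) and below it, in CPM, for Plin2 (696). Without HF control 1 the HFCF against HF count was 6530 in place of 4526. LF control 1 and HF control 1 share higher values of Gpnmb, Osbpl3, Aqp7, Scd2 and Ubd. The cause was not tested.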

How the results depend on the processing

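The count of genes changed between HFCF and LF controls was 5199 and stayed within 1.5 times of that with DESeq2 size factors, the DESeq2 Wald test, no filter, at least 10 counts in every library and all 6 female groups in 1 fit. It was 1620 with an absolute log2 difference of at least 1 and 2036 with a replicate block, which uses only numbers 1, 2 and 3 and so fewer libraries. The share of higher genes among those called was 52.3%, and 77.2% and 65.5% under these 2 settings. Without 1 library the count ran from 3474 to 5694. Same-numbered LF and HFCF controls had correlations of deviations of 0.0238, -0.144 and 0.0428, within the -0.242 to 0.219 of differently numbered ones. These values are too few and too variable to decide whether the replicate numbers pair the samples. In the labelled knockouts the count was 1754, with 922 at an absolute log2 of at least 1, 2747 with all 6 female groups in 1 fit, 1394 with the replicate block and 681 to 3587 without 1 library. The interaction gave 0 genes in every edgeR fit, 0 to 0 without 1 library, and 4 with the DESeq2 Wald test. HF against LF controls gave 99 genes, but 667 with the DESeq2 Wald test, 171 without a filter, 39 at an absolute log2 of at least 1, 313 with all 6 female groups, 76 with the replicate block and 10 to 112 without 1 library. HFCF against HF controls gave 4526 genes, 1718 at an absolute log2 of at least 1, 0 with the replicate block and 2454 to 6530 without 1 library. The cause of these differences was not tested beyond the fewer libraries or stricter threshold that a setting brings.

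Of 129 genes followed by name 116 were called, 103 of them also in every fit without 1 library. Of 1908 values of these genes under alternatives, 1790 kept their direction and side of the threshold, 95 lost and 9 gained a call, and 14 changed sign, none of them a called gene. These were Clec4f (0.004 with at least 10 counts, 0.013 with all 6 groups, -0.19 to 0.28 without 1 library), Col5a2 (0.41 with the block, -1.35 to 2.20 without 1 library), Plin2 (-0.18 to 0.15), Sqle (-0.45 to 0.055), Cd3e (-0.44 to 0.20) and Acta2 (-0.88 to 0.51), the last 4 without 1 library. Of 1080 counts of calls in lists, 925 stayed within 1.5 times of the reported count, 128 were smaller and 27 larger.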

Other observations

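Several lists that belong to none of the groups above were measured in HFCF against LF controls. Of 18 circadian clock genes, all tested, 1 rose and 5 fell (33.3% called, median log2 -0.36): Bhlhe41 rose by 1.04 and Nfil3, a repressor in the clock output, fell by 0.98, while the core activator genes Arntl and Clock had log2 differences of -0.01 and -0.12. The count of clock genes that fell was between 1 and 5 over the fits without 1 library. The time of day of collection is not given in the sources used here.

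Of 22 hepatokines and other secreted signals 21 were tested, 5 rose and 7 fell (median log2 -0.18). Inhbb, a subunit of activin, rose by 1.27 and Igfbp7 by 0.85. Igfbp2, an IGF-binding protein, fell by 1.24, Fetub, a fetuin, by 1.17 and Angptl8, which restrains lipoprotein lipase, by 1.05. Fgf21, the fasting and protein-restriction hormone, had a log2 difference of 0.14 and Gdf15, a stress-induced hormone, of 0.91; neither passed the test.

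Of 6 red blood cell genes 5 were tested and 1 rose, Alas2 by 1.11, with summed levels of 79.9 to 108 CPM in LF and 89.7 to 169 CPM in HFCF controls. Of 10 mesothelial and portal fibroblast genes 6 were tested and 2 rose, Mfap4 by 1.55 and Fbln2 by 1.34, with summed levels of 9.09 to 27.0 CPM in LF and 27.4 to 37.97 CPM in HFCF controls. The part of either in the other results was not tested.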
